A study of Rattus norvegicus with 12 samples.

Results

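Mitochondrial ribosomal proteins are encoded in the nucleus, made in the cytosol and imported into mitochondria, and their genes were examined here in adipocytes of chronically stressed rats. The genes were taken by name, as all non-control probes whose gene name in the array files begins with Mrpl or Mrps and a number. This gave 81 probes of 70 genes, out of 26483 genes on the array, with 42 genes named for the large subunit and 28 for the small subunit. Of the 70 genes, 69 had a probe that the scanner software called well above background on 6 or more of the 12 arrays and were tested, and Mrps28 had none. Each tested gene was read from its brightest tested probe.

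Epididymal adipocytes were collected from 6 male Fisher 344 rats after 35 days of chronic unpredictable stress (CUS), a schedule of 2 stressors a day such as cold swim, rotation, isolation, food and water deprivation, altered light, wet bedding and crowding. The other group was 6 male Fisher 344 control rats studied in parallel, which were handled every 2 days for weighing. The rats were about 12 weeks old when purchased, and 1 array was hybridised per rat with Cy3-labelled total RNA. The labels name epididymal adipocytes as the cell type, while their extraction text speaks of preadipocytes.

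The mitochondrial ribosome translates the few messenger RNAs of mitochondrial DNA, all of which encode subunits of the respiratory chain and ATP synthase. It descends from a bacterial ribosome, so that many of its proteins have a bacterial counterpart, while others are found only in mitochondria and are placed mostly on the outer surface. The small subunit reads the messenger RNA, and the large subunit joins the amino acids and is held close to the inner membrane, where the new proteins are inserted.

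The probes behind the results are strands of the array design, positioned on the rat genome build rn4. The 4 genes with the highest rises were measured by the following probes, and those of Mrpl3, Mrps9 and Mrps18b cover a stretch of genome longer than the probe, so their bases were not contiguous in the genome.
Mrpl16, chr1:214548159-214548218 (+): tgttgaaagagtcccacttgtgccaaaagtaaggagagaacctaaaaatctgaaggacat
Mrpl3, chr8:110138311-110140337 (+): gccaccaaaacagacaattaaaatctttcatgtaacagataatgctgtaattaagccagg
Mrps9, chr9:42085479-42092439 (+): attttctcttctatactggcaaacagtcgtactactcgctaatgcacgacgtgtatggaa
Mrps18b, chr20:2987325-2987478 (+): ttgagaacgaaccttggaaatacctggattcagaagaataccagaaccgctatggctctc
The brighter and the dimmer probe of Mrpl10 and of Mrpl35 gave different answers and are shown for that reason, with the probe of Mrps26, the other gene that fell. Capitals mark a run of bases in which every 16-base stretch also occurs, on either strand, in at least 10 promoter windows of other genes in the RefSeq table.
Mrpl10 brighter probe, chr10:85770281-85770340 (+): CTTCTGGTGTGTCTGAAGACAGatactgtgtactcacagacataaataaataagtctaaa
Mrpl10 dimmer probe, chr10:85768130-85768401 (+): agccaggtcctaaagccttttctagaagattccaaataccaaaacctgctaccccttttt
Mrpl35 brighter probe, chr4:105106986-105111007 (-): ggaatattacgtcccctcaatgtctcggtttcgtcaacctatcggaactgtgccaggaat
Mrpl35 dimmer probe, chr4:105103419-105103478 (-): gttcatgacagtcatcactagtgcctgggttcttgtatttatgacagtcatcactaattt
Mrps26, chr3:118182392-118182451 (+): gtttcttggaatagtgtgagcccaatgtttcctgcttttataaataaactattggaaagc
The brighter Mrpl10 probe shared a 16-base stretch with 85 promoter windows of other genes. Of all 19727 tested probes, 1.42% shared one with at least 10 windows, and among the genes described here this also held for Mrps15, with 21 windows.

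Levels are given as log2 signal relative to the 75th percentile of the non-control probes of the same array, so a difference of 1 between groups is a 2-fold change. All CUS arrays shared 1 slide and all control arrays a second one, so a difference between slides and a difference between groups cannot be told apart. The 75th percentile itself was an intensity of 541.1 to 626.6 on the CUS arrays and of 229.5 to 399.7 on the control arrays. Control replicate 3 had the lowest percentile and the lowest share of probes well above background (60.4%), and control arrays correlated with each other at r of 0.95 to 0.99 over tested probes, against 0.99 between any CUS arrays. Across all 17393 genes tested, the median difference was -0.02.

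Genes for mitochondrial ribosomal proteins were more often higher than lower in adipocytes of CUS rats. Of the 69 tested, 34 (49.3%) rose at an adjusted p under 0.05, where 24.2% of all genes tested rose, and 2 (2.90%) fell, where 25.8% of all genes fell. The other 33 did not pass, with differences between -0.16 and 0.30. The differences were positive for 62 genes and negative for 7, and their median was 0.27. Without control replicate 3, 49 rose and 2 fell, with a median of 0.33, where 29.2% of all genes rose and 30.4% fell. The size of the shift depended on how arrays were scaled to each other. The 10 probes for spike-in RNAs differed by -0.05 between the groups before scaling and by -0.83 after scaling on the 75th percentile. Before scaling, their median was 10.63 to 11.21 on CUS arrays and 10.54 to 11.43 on control arrays. Whether each sample received the same amount of this added RNA was not tested. When arrays were scaled on the spike-in RNAs, 67 of the 69 genes rose and 0 fell, while 63.4% of all genes rose and 2.50% fell, and when they were left unscaled, 69 rose, against 67.7% of all genes. Relative to the median of all genes, the median of these genes was 0.30 higher under these 3 scalings, which differ by a constant per array and so leave that gap the same, and 0.21 higher after quantile normalization. All adjusted p-values come from limma over all tested probes, with Benjamini-Hochberg adjustment. With the 75th percentile, the share of all genes that rose differed by probe series, the start of the probe name. On A_44 probes 17 of 25 genes of the family rose and 0 fell, where 35.1% of all genes on them rose and 816 of 5075 fell. On A_64 probes 11 of 28 rose and 2 fell, where 17.5% of all genes on them rose and 3124 of 9708 fell. On A_42 probes 5 of 14 rose (27.0% of all genes), and on A_43 probes 1 of 2 (30.2%). The part of the series in these differences was not tested.

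**Figure D1:**
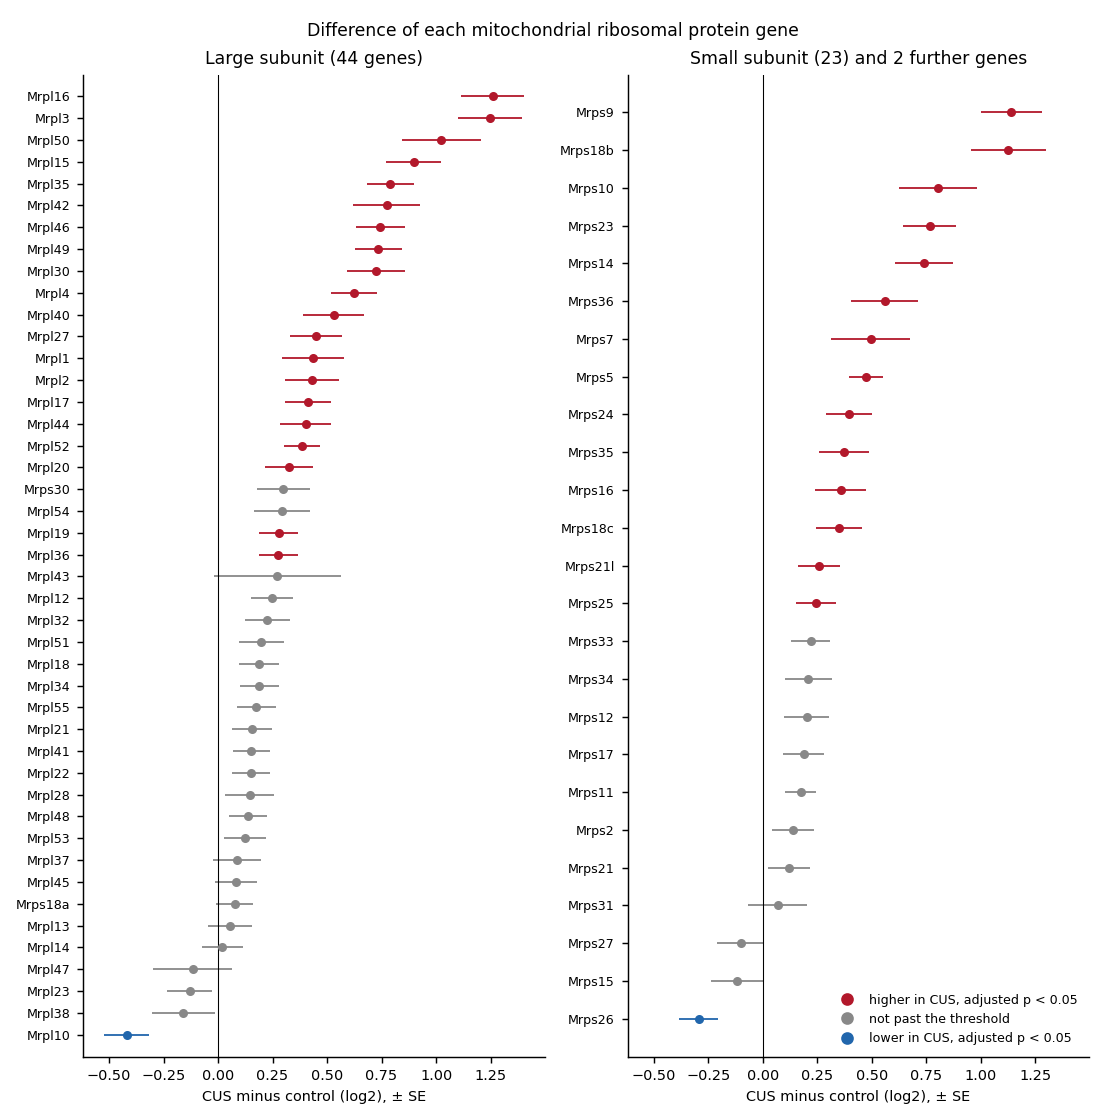
Difference of each of the 69 tested genes, CUS minus control on the log2 scale of levels relative to the 75th percentile (x axis), with the standard error of the fit as bars; genes are ordered by difference within the large subunit (left) and the small subunit with Mrps21l and Mrps36 (right), and colour marks the call at an adjusted p under 0.05. Red points, higher in CUS, run from 0.25 to 1.26, and the 2 blue points, Mrpl10 and Mrps26, lie at -0.42 and -0.29 and turn positive when arrays are scaled on the spike-ins or left unscaled.

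In bulk RNA of this kind, a change in the kinds of cell collected and a change in RNA per cell cannot be told apart. Adipocyte markers were measured on all arrays, with a mean level over 8 genes of 4.24 to 4.59 on CUS arrays and of 3.91 to 4.83 on control arrays, and 3 of them were higher and 2 lower in CUS. Markers of red blood cells, such as globins, were higher in CUS for 6 of 6 genes, with a mean level of 4.96 to 5.75 on CUS arrays and of 0.29 to 1.18 on control arrays. Mast cell markers were higher for 6 of 7 genes (-3.07 to -1.56 on CUS arrays, -5.48 to -4.99 on control arrays). Of the 6, Mcpt1 and Ms4a2 were well above background on 0 of 6 control arrays and Cpa3 on 1. Mcpt1 and Ms4a2 passed the filter on dim probes only through the CUS arrays, so their place among the 6 gives no support. Smooth muscle markers were lower for 5 of 6 genes (-1.53 to 0.06 on CUS arrays, -1.39 to 1.91 on control arrays) and endothelial markers for 4 of 6 (-0.49 to 0.50 on CUS arrays, -0.43 to 1.52 on control arrays). Of the macrophage markers, 2 of 6 were higher, and of the preadipocyte markers, 1 of 5 was lower. The part of these cells in the changes of mitochondrial ribosomal protein genes was not tested.

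The 2 highest rises were in genes of large subunit proteins with bacterial counterparts. Mrpl16, whose bacterial homologue lies beside the transfer RNA binding sites, had levels of -0.37 to 0.09 (median -0.19) in CUS rats and of -1.73 to -0.96 (median -1.49) in control rats. The groups did not overlap, and the difference was 1.26 ± 0.14 (SE, n = 6 each, adjusted p = 3.7e-05). Mrpl3, whose bacterial homologue is one of the first proteins to join the growing large subunit, had levels of -1.06 to -0.69 (median -0.83) in CUS rats and of -2.57 to -1.68 (median -2.03) in control rats. It also showed no overlap, with a difference of 1.25 ± 0.15 (adjusted p = 4.7e-05). All CUS rats thus lay above all control rats for both genes, and within the control group replicate 3 was the highest for each.

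Mrps9 and Mrps18b were the small subunit genes that rose most. Mrps9, whose bacterial homologue sits in the head of the small subunit, had levels of 0.21 to 0.75 (median 0.55) in CUS rats and of -1.11 to -0.28 (median -0.69) in control rats, a difference of 1.14 ± 0.14 (adjusted p = 6.5e-05). Mrps18b had levels of -1.48 to -1.13 (median -1.39) in CUS rats and of -2.93 to -1.80 (median -2.45) in control rats, a difference of 1.13 ± 0.17 (adjusted p = 0.00028). The 2 groups were apart for both genes. Mammals have 3 relatives of the bacterial small subunit protein S18, and only 1 of them, the product of Mrps18c, takes the place of the bacterial protein. Mrps18c rose by less, with levels of 2.32 to 2.74 (median 2.50) in CUS rats and of 1.92 to 2.50 (median 2.12) in control rats, so that the groups overlapped (difference 0.35 ± 0.11, adjusted p = 0.016). Mrps18a, whose product is built into the large subunit, had levels of 0.88 to 1.15 (median 0.96) in CUS rats and of 0.76 to 1.16 (median 0.84) in control rats, and its difference of 0.08 ± 0.09 did not pass (adjusted p = 0.47). Whether the differences of the 3 relatives differ from each other was not tested.

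Mrpl50, a mitochondria-specific protein of the large subunit, had levels of -0.41 to 0.22 (median 0.03) in CUS rats and of -1.50 to -0.30 (median -1.09) in control rats. Its difference was 1.02 ± 0.18 (adjusted p = 0.00074), and the groups overlapped, as control replicate 3, at -0.30, lay above CUS replicate 1, at -0.41. Mrpl15, whose bacterial homologue joins the large subunit late, had levels of -0.53 to -0.09 (median -0.23) in CUS rats and of -1.56 to -0.74 (median -1.14) in control rats, a difference of 0.90 ± 0.13 (adjusted p = 0.00016). Mrpl35 had levels of -0.04 to 0.28 (median 0.14) in CUS rats and of -0.94 to -0.36 (median -0.68) in control rats at its brighter probe, a difference of 0.79 ± 0.11 (adjusted p = 0.00013). For Mrpl15 and the brighter Mrpl35 probe no control array reached the level of a CUS array.

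Mrps10, a protein of the head of the small subunit, was close to the limit of detection. It was well above background on 6 of 6 CUS arrays and on 0 of 6 control arrays, with levels of -5.22 to -4.78 (median -4.98) in CUS rats and of -6.40 to -5.27 (median -5.73) in control rats. Set against the dimmest detected signal on each control array, it was at least 1.60-fold higher in CUS rats. It passed the filter on dim probes only through the CUS arrays, so its place among the 34 genes that rose, and among the 13 whose groups did not overlap, gives no support. With only genes well above background on all 12 arrays, 34 of 66 rose, where 26.0% of all genes did. The direction turned with another background correction (normexp, with an offset of 50 added to the signal), under which Mrps10 was lower in CUS by 0.44 (adjusted p = 0.0012). Under normexp 63.4% of all genes with a mean signal below the 75th percentile fell. The direction of Mrps10 thus depended on the background correction, and the part of the offset in this turn was not tested. Of the 34 rises, only that of Mrps10 turned under any alternative tried. The 8 highest rises were all read from A_44 probes, and the falls of Mrpl10 and Mrps26 from A_64 probes.

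**Figure D2:**
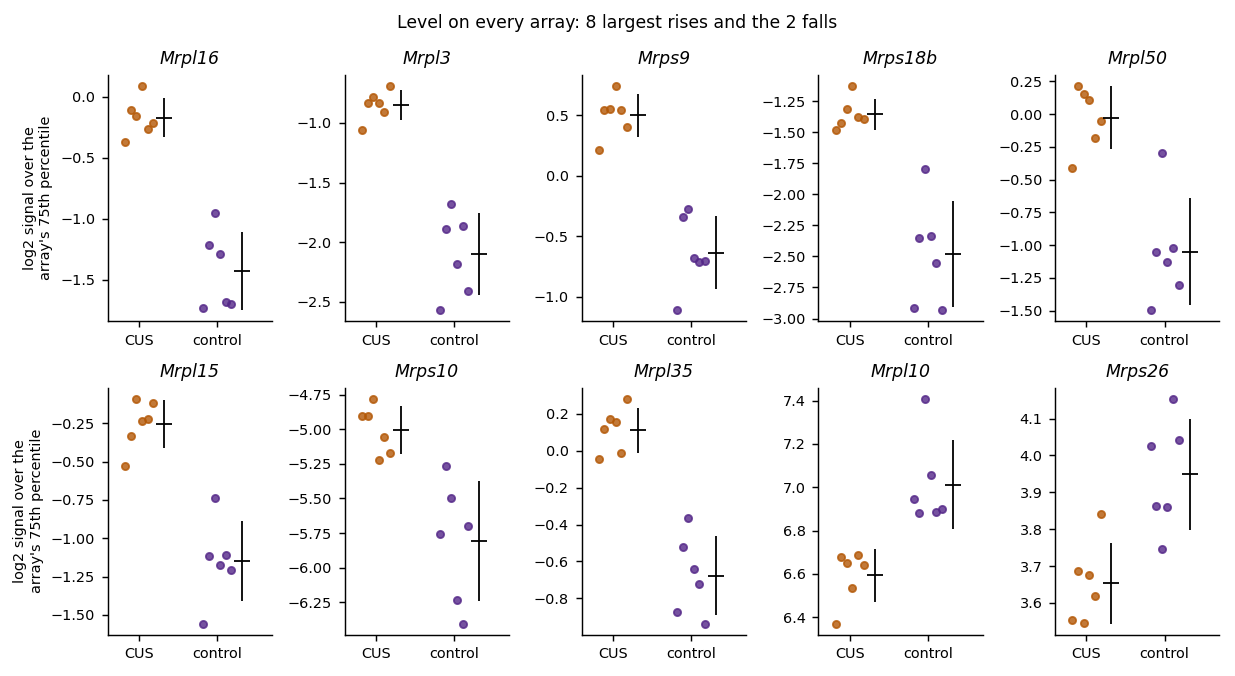
Level of the 8 genes with the highest rises and of the 2 genes that fell, as log2 signal relative to the 75th percentile of the array (y axis, a scale of its own for each gene), for 6 CUS rats (left, orange) and 6 control rats (right, purple), with the mean and SD as a cross beside the points. CUS and control arrays do not overlap for Mrpl16, Mrpl3, Mrps9, Mrps18b, Mrpl15, Mrps10, Mrpl35 and Mrpl10, and overlap for Mrpl50 and Mrps26; Mrps10 turns with the background correction, and Mrpl10 and Mrps26 with the scaling.

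Of the 34 genes that rose, 5 rose at least 2-fold (7.25% of those tested, where 3.24% of all genes did), and 0 fell by as much (0 also at an unadjusted p in limma and with the methods' t-test), where 8.76% of all genes did. The number that rose 2-fold depended on the processing. It was 0 of the 69 under normexp with its offset of 50 (1.05% of all genes), 48 under scaling on the spike-ins (34.8% of all genes) and 39 without scaling (31.1% of all genes). For 13 genes (18.8%) every CUS rat lay above every control rat, where this held for 10.4% of all genes, and for 1 gene, Mrpl10, every CUS rat lay below, where this held for 11.5%. The 13 are Mrpl16, Mrpl3, Mrps9, Mrps18b, Mrpl15, Mrps10, Mrpl35, Mrps23, Mrpl46, Mrps14, Mrpl49, Mrpl4 and Mrps5. Leaving out control replicate 3, which was the highest control array for 60 of the 69 genes, 32 genes lay wholly above and 2 wholly below. Of all genes, 19.7% lay wholly above. The share of all genes wholly below was not counted, so the 2 cannot be set against it. The mean level over the 69 genes was 1.26 to 1.52 on the CUS arrays, 1.43 on control replicate 3 and 0.95 to 1.07 on the other 5 control arrays. The median SD of a gene was 0.14 among CUS rats and 0.20 among control rats (n = 6 each), and 0.13 among control rats without replicate 3.

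Genes of both subunits were among those that rose, where 24.2% of all genes tested rose and 25.8% fell. Of the 44 tested genes whose products belong to the large subunit, 20 (45.5%) rose and 1 fell, with a median difference of 0.27. Of the 23 of the small subunit, 12 (52.2%) rose and 1 fell, with a median of 0.25. Among the 39 with a bacterial counterpart, 21 (53.8%) rose and 1 fell (median 0.28). Among the 25 found only in mitochondria, 10 (40.0%) rose and 1 fell (median 0.25). Apart from the genes given above, the rises among proteins with bacterial counterparts were in Mrps14 (0.74), Mrpl30 (0.72), Mrpl4 (0.62), Mrps7 (0.49), Mrps5 (0.47), Mrpl27 (0.45), Mrpl1 (0.44), Mrpl2 (0.43), Mrpl17 (0.41), Mrps24 (0.39), Mrps16 (0.36), Mrpl20 (0.32), Mrpl19 (0.28) and Mrpl36 (0.28). Mrps7 has a bacterial counterpart that starts assembly of the head of the small subunit, and that of Mrpl1 forms the stalk beside the exiting transfer RNA. Among mitochondria-specific proteins, the rises besides Mrpl50 were in Mrpl42 (0.77), Mrps23 (0.77), Mrpl46 (0.74), Mrpl49 (0.74), Mrpl40 (0.53), Mrpl44 (0.40), Mrpl52 (0.39), Mrps35 (0.37) and Mrps25 (0.25). Mrpl44 carries a fold related to ribonuclease III. The remaining rises were in Mrps36 (0.56), now named Kgd4 because its product is a part of the 2-oxoglutarate dehydrogenase complex and not of the ribosome, and in Mrps21l (0.26), named as a gene like Mrps21. Without these 2 genes, 32 of 67 rose and 2 fell.

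Several of these calls lay near the threshold. Mrps7, Mrps25 and Mrps21l did not pass when any 1 of 10 arrays was left out, with adjusted p up to 0.084, 0.091 and 0.088. Mrpl20 did not pass when any 1 of 7 was left out, nor Mrpl1 and Mrpl36 for 2 each and Mrpl19 and Mrps16 for 1 each. The other 28 of the 36 calls passed whichever array was left out. With normexp the call of Mrps5 was lost, at a difference of 0.02 (adjusted p = 0.81), and the rises of Mrpl3 (0.77), Mrps18b (0.58), Mrps14 (0.45), Mrpl4 (0.41) and Mrpl49 (0.36) were smaller by over 1.5 times and still passed.

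The genes without a call named next were chosen after their values were seen. Mrps12, the decoding site protein whose bacterial homologue is altered in streptomycin resistance, differed by 0.20 ± 0.10 (adjusted p = 0.12). Mrpl12, of the stalk that recruits translation factors, differed by 0.25 ± 0.10, with an adjusted p of 0.050 that lay just above the threshold. Mrpl45, which ties the large subunit to the inner membrane, differed by 0.08 ± 0.10 (adjusted p = 0.49). Mrpl37 and Mrps30, a pair of related large subunit proteins, differed by 0.09 ± 0.11 and 0.30 ± 0.12 (adjusted p = 0.53 and 0.057). The 5 genes with a negative difference that did not pass were Mrpl38, Mrpl23, Mrps15, Mrpl47 and Mrps27, between -0.16 and -0.10, and all 5 were positive under scaling on the spike-ins and without scaling. Mrpl43 was well above background on 6 CUS arrays and on 1 control array, with levels of -5.00 to -4.30 (median -4.84) in CUS rats and of -6.43 to -4.24 (median -4.87) in control rats. Its difference was 0.27 ± 0.29 (adjusted p = 0.45). Mrps28 was never well above background.

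The 2 falls were smaller than 2-fold. Both differences were positive under scaling on the spike-ins and without scaling, where the median of all genes was 0.80 and 0.75, so that both genes lay below that median, and they were -0.45 for Mrpl10 and -0.43 for Mrps26 after quantile normalization. Mrpl10, a protein of the stalk base, had levels of 6.37 to 6.69 (median 6.65) in CUS rats and of 6.88 to 7.41 (median 6.92) in control rats at its brighter probe, a difference of -0.42 ± 0.10 (adjusted p = 0.0056) against 0.41 under scaling on the spike-ins and 0.36 without scaling. Its dimmer probe went the other way, with levels of -1.61 to -1.22 in CUS rats and of -2.51 to -1.87 in control rats. The difference there was 0.72 ± 0.11 (adjusted p = 0.00036), also with no overlap. The brighter probe is the one with the 22 capital bases printed above, and what either probe binds beside Mrpl10 RNA was not tested. Mrps26, a mitochondria-specific protein of the small subunit, had levels of 3.55 to 3.84 (median 3.65) in CUS rats and of 3.75 to 4.15 (median 3.94) in control rats. Its difference was -0.29 ± 0.09 (adjusted p = 0.016), against 0.53 under scaling on the spike-ins and 0.48 without scaling.

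Besides Mrpl10, 8 genes had 2 tested probes. Both probes passed and rose for Mrpl2 (0.43 and 0.37), Mrpl17 (0.41 and 0.49), Mrpl40 (0.53 and 0.28) and Mrps16 (0.36 and 0.33). The brighter Mrpl17 probe has 60 bases and is positioned on a stretch of 50. Its mean level in CUS rats was 4.81, against -0.24 at the dimmer probe, and what it binds beside Mrpl17 RNA was not tested. The dimmer Mrpl35 probe had levels of -0.56 to -0.09 in CUS rats and of -0.67 to -0.25 in control rats, and its difference of 0.18 ± 0.10 did not pass (adjusted p = 0.14), unlike the brighter one. For Mrpl54 the brighter probe did not pass (0.29, adjusted p = 0.070) and the dimmer one did (0.36, adjusted p = 0.044). Neither probe passed for Mrpl41 (0.15 at both, from probes that overlap on the genome) or for Mrps21 (0.12 and 0.57, adjusted p = 0.31 and 0.052). The second probes of Mrpl30 and Mrpl50 were too dim to test.

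**Figure D3:**
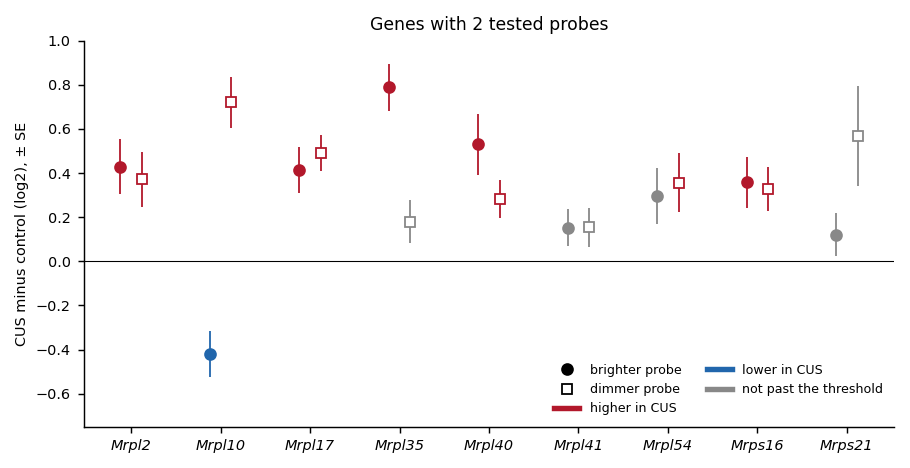
Difference, CUS minus control on the log2 scale (y axis, with the standard error as bars), at the brighter probe (filled circle) and the dimmer probe (open square) of the 9 genes with 2 tested probes. Both probes of Mrpl2, Mrpl17, Mrpl40 and Mrps16 are higher in CUS, while the probes of Mrpl10 lie at -0.42 and 0.72; the first of these is positive when arrays are scaled on the spike-ins or left unscaled.

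With the background correction used here, the median difference was larger where the signal was weaker. Among the 19 genes with a mean signal below the 75th percentile of the array, 13 rose and 0 fell (68.4% rose, against 20.8% of all genes in that range), with a median difference of 0.74, where the median of all genes was -0.17. Among the 15 genes between the percentile and 4 times it, 9 rose and 0 fell, where 29.4% of all genes in that range rose, with a median of 0.28 (all genes 0.05). Among the 35 brighter genes, 12 rose and 2 fell (34.3% rose, against 29.2% of all genes), with a median of 0.20 (all genes 0.11). Of all genes in these 3 ranges, 3408 of 10398, 650 of 3364 and 424 of 3631 fell. With normexp the medians over the same 3 sets of genes were 0.41, 0.30 and 0.26, and those of all genes -0.40, 0.09 and 0.20. The 4 brightest genes, by the mean over all arrays, were Mrpl10, Mrpl17, Mrpl54 and Mrps16. Mrpl17 had levels of 4.59 to 5.04 (median 4.80) in CUS rats and of 4.29 to 4.73 (median 4.32) in control rats (adjusted p = 0.0065), and Mrps16 had levels of 4.04 to 4.47 (median 4.31) in CUS rats and of 3.67 to 4.31 (median 3.89) in control rats (adjusted p = 0.023). Mrpl54 had levels of 4.06 to 4.54 (median 4.36) in CUS rats and of 3.76 to 4.52 (median 3.97) in control rats. The 0 falls in the first 2 ranges were also 0 at an unadjusted p under 0.05 in limma and with the methods' t-test. With normexp, however, 5 of the 19 genes below the percentile fell, where 63.4% of all genes in that range did, and 0 of the 15 fell. The 5 were Mrpl43 (-0.49), Mrpl47 (-0.48), Mrps10 (-0.44), Mrps27 (-0.40) and Mrps2 (-0.36). The part of the normexp offset of 50 in these falls was not tested. The split by signal was chosen after the values were seen.

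A further 3 probes carry other gene names in the files and a current name of this family. Mrps22 rose (-1.60 ± 0.18 in CUS rats, -2.52 ± 0.37 in control rats, SD, n = 6 each, difference 0.92, adjusted p = 0.00066), as did Mrpl57 (difference 0.23, adjusted p = 0.046). Mrpl58, a peptidyl-tRNA hydrolase built into the large subunit, did not pass (difference -0.26, adjusted p = 0.083). Of the mitochondrial ribosome genes that the files list under other names, Gadd45gip1 (0.38) and Chchd1 (0.28) rose, and Dap3 (-0.04), Ptcd3 (0.01) and Aurkaip1 (0.18) did not pass.

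Other genes of mitochondrial translation were described with the same fit, in which 24.2% of all genes tested rose and 25.8% fell. Of 19 tested genes for assembly of the mitochondrial ribosome, 7 (36.8%) rose and 0 fell, with a median difference of 0.22. For this list and for the translation factors and complex I subunits below, the falls were also 0 at an unadjusted p under 0.05 in limma and 0 with the methods' t-test after adjustment. The leading ones were Ddx28 (1.11 ± 0.20, adjusted p = 0.00093), a helicase, the GTPase gene Mtg2 (0.93 ± 0.12, adjusted p = 7e-05), the ribosomal RNA methyltransferase gene Mrm3 (0.61) and Malsu1 (0.60). Ddx28 was dim, with a mean of -3.39 in CUS rats and -4.50 in control rats, and was well above background on 5 of 6 control arrays. Of 14 translation factors, 6 (42.9%) rose and 0 fell (median 0.25). Those that rose included Gfm2 (1.02), which acts in recycling of the ribosome, Taco1 (0.42), the elongation factor gene Gfm1 (0.39) and Mtfmt (0.38), which formylates the initiator transfer RNA. Gfm2 was also dim, with a mean of -4.00 in CUS rats and -5.02 in control rats, and was well above background on 4 of 6 control arrays. Of 18 genes for charging mitochondrial transfer RNAs, 6 (33.3%) rose and 1 (5.56%) fell (median 0.13). Fars2 was at 1.25 ± 0.19 (adjusted p = 0.00026), Mars2 at 0.56 and Wars2 at -0.50 ± 0.12 (adjusted p = 0.0042). Mars2, at a mean of -3.86 in CUS rats and -4.42 in control rats, was well above background on 5 of 6 control arrays. Of 16 genes for transcription and copying of mitochondrial DNA and their regulators, 3 (18.8%) rose and 2 (12.5%) fell (median 0.01). Polg (0.70), Tefm (0.68) and Tfam (0.32) rose, and Gabpb1 (-0.33) and Twnk (-1.12) fell. The probe of Twnk had a mean level of 7.75 in CUS rats and of 8.87 in control rats. No other tested gene of this list had a mean above 2.33 in either group. What this probe binds beside Twnk RNA was not tested. The regulators Nrf1 (-0.02), Esrra (0.03) and Gabpa (-0.26) did not pass, and Ppargc1a was not tested.

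The mitochondrial genes were set beside complex I of the respiratory chain and beside the ribosome of the cytosol. Among all genes tested, 24.2% rose and 25.8% fell. Of 40 tested genes of the complex I list, 26 (65.0%) rose and 0 fell, with a median difference of 0.42. The list holds Ndufa4, which did not pass. It also holds Ndufa10l1, Ndufb4l1 and Ndufb4l3, which are named as genes like others and rose. Whether each product is a part of complex I was not tested. Ndufa9 (1.03), Ndufa11 (0.74), Ndufb6 (0.73) and Ndufa12 (0.62) differed most. Of 89 tested cytosolic ribosomal protein genes, 11 (12.4%) rose and 7 (7.87%) fell, with a median difference of -0.01 that becomes a rise when arrays are scaled on the spike-ins or left unscaled, as the median of all genes does. Rpl5 (0.59), Rps4x (0.57), Rps26 (0.36) and Rpl10l1 (0.36) differed most. The mean level of complex I subunits was 3.93 to 4.29 on CUS arrays, 4.26 on control replicate 3 and 3.58 to 3.73 on the other control arrays, so that control replicate 3 lay within the range of the CUS arrays, as it did for the mitochondrial ribosomal proteins. For cytosolic ribosomal proteins it was 6.36 to 6.57 on CUS arrays and 6.42 to 6.59 on control arrays.

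**Figure D4:**
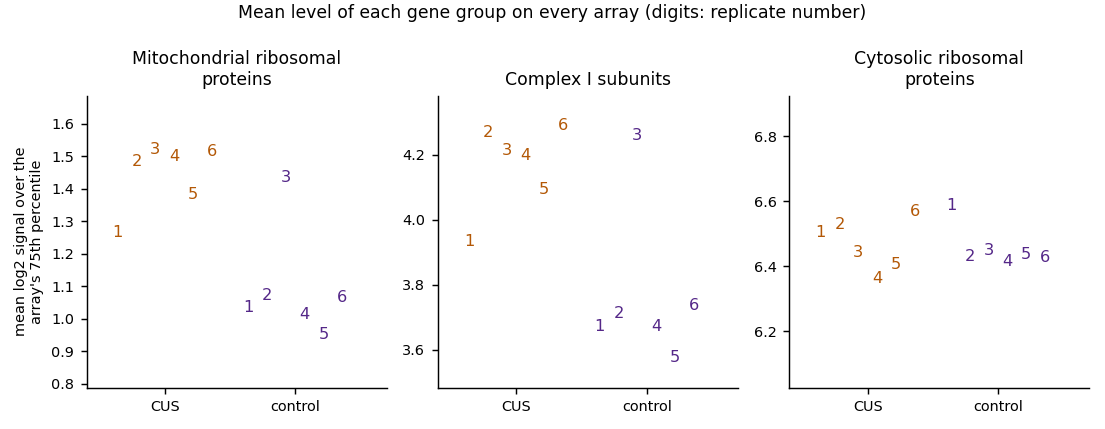
Mean level on every array, as log2 signal relative to the 75th percentile (y axis, each panel spanning the same range). The panels show the 69 tested mitochondrial ribosomal protein genes, 40 genes of the complex I list and 89 cytosolic ribosomal protein genes. CUS arrays are left and control arrays right, and digits give the replicate number. Control replicate 3 lies among the CUS arrays in the first 2 panels (1.43 and 4.26), and the groups overlap in the third.

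Promoter windows, 250 bases before to 50 after the start of the gene, were found in the RefSeq table (build GRCr8) for 56 of the 70 genes, of which 27 rose. The windows of 3 genes are shown, with capitals for the letters TGCGCA (core of the NRF1 motif), CCGGAAG (ETS family, which includes GABP) and AAGATGGC (YY1) on either strand, which do not overlap in them. Mrps18b and Mrpl3 are shown for their rises. Mrpl46 is shown because it and Mrps11 start 234 bases apart and run in opposite directions, so that its window holds the start of both.
Mrps18b, chr20:2842756-2843055 (+): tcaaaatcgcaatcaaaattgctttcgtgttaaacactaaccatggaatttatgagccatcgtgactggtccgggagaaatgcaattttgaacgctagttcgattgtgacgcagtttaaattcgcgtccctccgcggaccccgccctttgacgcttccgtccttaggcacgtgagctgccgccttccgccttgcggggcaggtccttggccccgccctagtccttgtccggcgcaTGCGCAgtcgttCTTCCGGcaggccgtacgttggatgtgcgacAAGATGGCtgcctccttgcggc
Mrpl3, chr8:114548720-114549019 (+): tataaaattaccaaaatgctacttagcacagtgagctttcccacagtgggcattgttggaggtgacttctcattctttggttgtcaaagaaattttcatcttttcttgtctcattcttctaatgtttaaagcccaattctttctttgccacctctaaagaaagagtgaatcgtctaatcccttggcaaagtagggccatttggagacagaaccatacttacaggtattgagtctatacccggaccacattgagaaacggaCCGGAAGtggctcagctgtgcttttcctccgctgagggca
Mrpl46, chr1:142116981-142117280 (-): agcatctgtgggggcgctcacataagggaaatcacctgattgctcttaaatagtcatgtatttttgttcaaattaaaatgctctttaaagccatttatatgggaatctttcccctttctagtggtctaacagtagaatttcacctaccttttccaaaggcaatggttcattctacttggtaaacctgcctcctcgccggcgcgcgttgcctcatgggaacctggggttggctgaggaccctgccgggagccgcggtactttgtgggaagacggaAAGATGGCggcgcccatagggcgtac
The ETS letters were in the windows of 18 of the 56 genes (32.1%), against 8.75% of all 33469 windows in the table, and 10 of the 18 rose. The YY1 letters were in 14 windows (25.0%, against 3.17% of all), and 8 of the 14 genes rose. The NRF1 letters were also in 14 windows (25.0%, against 7.24% of all), among them those of Mrps9, Mrps18b and Mrps23, and 6 of the 14 genes rose. TGACGTCA (CRE) was in 1 window (1.79%, against 1.83%), of a gene that did not pass, and CACGTG (E-box) in 6 of the 56 (against 6.42% of all), of which 5 rose, both sought on either strand. A match describes the letters and not binding. Motifs were thus held by genes that rose and by genes that did not, and Mrps26, which fell at its probe, also holds the ETS letters.

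Genes that share a start region did not always change together. Mrpl46 had levels of 0.32 to 0.64 (median 0.54) in CUS rats and of -0.51 to 0.14 (median -0.19) in control rats, with a difference of 0.74 ± 0.11 (adjusted p = 0.00026). Mrps11, its neighbour, had levels of -0.72 to -0.49 (median -0.59) in CUS rats and of -0.87 to -0.70 (median -0.77) in control rats, and its difference of 0.17 ± 0.07 did not pass (adjusted p = 0.058). In all, 18 of the genes had a neighbour in the opposite direction with a start within 1000 bases. Of these neighbours 14 were tested, and 4 rose and 2 fell, where 24.2% of all genes tested rose and 25.8% fell. Mrpl46 and Mrps11 are each counted as the neighbour of the other. The falls were in Gga3, beside Mrps7 (-0.67, against 0.49 for Mrps7), and Ncapd2, beside Mrpl51 (-0.58, against 0.20 for Mrpl51, which did not pass). Besides Mrpl46 itself, the rises were in Ndufb5 beside Mrpl47 (0.59, against -0.12 for Mrpl47, which did not pass), Psma2 beside Mrpl32 (0.34, against 0.23 for Mrpl32, which did not pass) and Klc4 beside Mrpl2 (0.25, against 0.43 for Mrpl2).

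**Figure D5:**
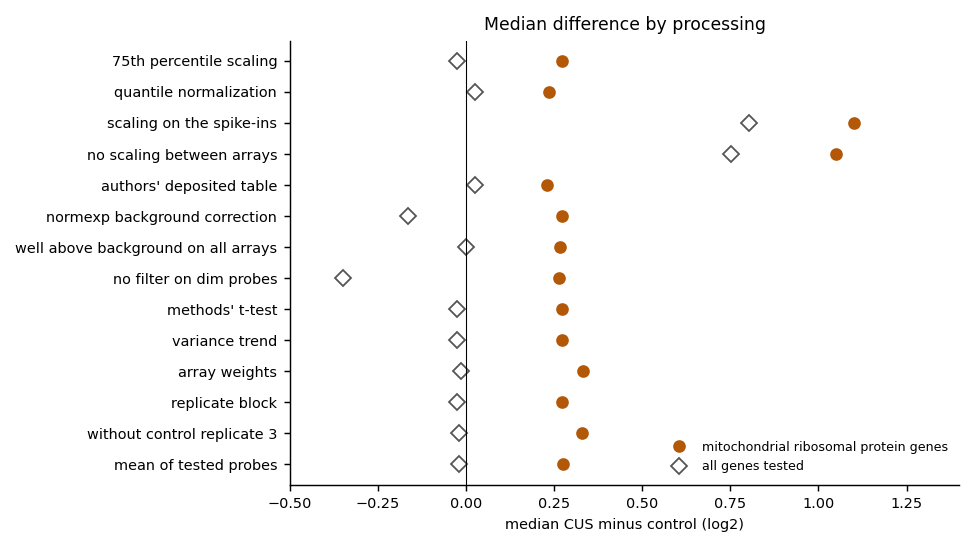
Median difference, CUS minus control on the log2 scale (x axis), over the mitochondrial ribosomal protein genes (orange) and over all genes tested (open diamonds), under each way of processing (rows). The median of the mitochondrial ribosomal protein genes is above that of all genes in every row, from 0.23 (authors' table) to 1.10 (spike-in scaling), and the median of all genes is between -0.35 and 0.80.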

How the data were processed

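The authors deposited scanner output of 12 one-colour Agilent gene expression arrays, in which Feature Extraction (10.7.3.1 per the file headers) had subtracted background from each spot intensity. A table of quantile-normalized intensity values, also deposited by the authors, served as an alternative. An exon array is named in the paper, whereas the deposited files come from a gene expression array. Spots flagged as outliers were left out, log2 values were averaged over spots of 1 probe, and the 75th percentile of non-control probes was subtracted per array. Probes well above background (in at least 0.5 of their spots) on at least 6 of 12 arrays were tested, which gave 19727 probes of 17393 genes. CUS was compared with control by limma 3.58.1 in R 4.3.3, two-sided, with no covariate and Benjamini-Hochberg adjustment over all tested probes. Where none of the arrays of 1 group had a probe well above background, the fold is a bound, from the mean of the brighter group over the mean, per array, of the lowest detected signal or the probe's own signal, whichever is higher.

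Current gene names, promoter windows and neighbours came from RefSeq tables of build GRCr8, which were matched by accession (17881 probes), symbol (2539) or synonym (668), and 9279 probes kept the name in the file. Positions of probes follow the array design on rn4, and no genome annotation of that build was used here. All genes of the family could be named. Array values were given for the 8 largest rises and the falls past the threshold, for genes with several tested probes, for the 4 brightest, for the S18 relatives, and, of each other list, up to 4 genes with the largest difference among those past the threshold are named. A gene that this rule would name is not reported here. Other genes named in the text were chosen after their values were seen. The genes and lists were chosen with earlier results of these data known. The methods' t-test with a 2-fold limit was run as an alternative, with other scalings, background corrections, filters, probe rules and variance models, and with each array left out in turn. In simulated data with 200 changed probes among 19727, the calls for CUS minus control recovered 13 of the 70 with a log2 change of 0.5. They recovered 58 of the 67 with 1 and 61 of the 63 with 2, with 10 false calls. In the real data 8697 of 17393 genes (50.0%) were called, so the simulation does not give the recovery in these data. The number of arrays limits the precision, and p-values measure the spread between single rats on 1 slide per group. Tables were made in Python 3.11.15 (pandas 2.3.3, NumPy 2.4.6 as libraries).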

Additional observations from a re-analysis of the deposited data

Results flagged for a closer look

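In 19 of the 138 groups of 6 arrays examined (69 genes, 2 groups each), the level on 1 array stood apart from the other 5 by more than Dixon's limit, which chance passes in about 1 group in 20. Of these, 14 were in control replicate 3, which was the highest control array each time. The levels on that array were 1.51 for Mrpl1, 7.41 for Mrpl10, 4.73 for Mrpl17, 0.63 for Mrpl19, 1.24 for Mrpl30, 2.35 for Mrpl36, 4.13 for Mrpl37, -3.59 for Mrpl47, 0.22 for Mrpl52, 4.66 for Mrps7, 1.63 for Mrps15, 3.05 for Mrps25, 3.24 for Mrps33 and 2.80 for Mrps36. For Mrps36 the other 5 control arrays lay between 1.78 and 2.09, and for Mrps7 between 3.50 and 3.93. The other 5 were in CUS arrays. CUS replicate 1 was the lowest for Mrpl2 (2.39), CUS replicate 3 the highest for Mrpl47 (-4.18) and Mrps2 (-3.29), CUS replicate 4 the highest for Mrpl49 (-1.02) and CUS replicate 6 the highest for Mrps18a (1.15).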

How the results depend on the processing

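Of the 36 calls, 24 kept their direction and their side of the threshold under every alternative. Scaling on the spike-ins gave 67 genes higher, 0 lower and a median of 1.10, and no scaling gave 69, 0 and 1.05. Array weights gave 56 higher (32.5% of all genes), and normexp background correction 49 higher (22.9% of all genes) and 7 lower (44.0% of all genes). The mean of the tested probes gave 1 lower (26.1% of all genes). A rule added after seeing the data, which took the brightest probe without shared runs, also gave 1 lower. The methods' t-test was run with unequal variances on the levels used here, not on dChip values. At an unadjusted p under 0.05 and a 2-fold change it gave 5 higher and 0 lower. After Benjamini-Hochberg it gave 36 higher and 2 lower, where 22.7% of all genes were higher and 21.9% lower. The paper's methods give a p under 0.05 and name no adjustment, while its results speak of FDR correction. Leaving out 1 array gave 28 to 49 higher, 2 lower each time and a median of 0.23 to 0.33. Of all genes, 21.0 to 29.2% were then higher and 22.4 to 30.4% lower. The replicate numbers did not pair rats. The r between the deviations of arrays with the same number was -0.19 to 0.43. The best match across groups had the same number for 1 of 6. With the replicate number as a block 34 were higher and 2 lower (24.7% and 27.6% of all genes), with a median of 0.27.

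Over all 69 genes and all alternatives, 1498 values kept direction and call, 130 passed in addition, 52 no longer passed and 41 turned. The values that turned follow. The first 2 scalings move the median of all genes up, and otherwise the cause was not tested. Scaled on the spike-ins it was 0.41 for Mrpl10, 0.70 for Mrpl23, 0.67 for Mrpl38, 0.71 for Mrpl47, 0.71 for Mrps15, 0.53 for Mrps26 and 0.73 for Mrps27. Without scaling it was 0.36, 0.65, 0.62, 0.66, 0.66, 0.48 and 0.68 for the same genes in that order. After quantile normalization it was -0.074 for Mrpl13, -0.10 for Mrpl14, -0.048 for Mrpl37, 0.30 for Mrpl47, -0.0037 for Mrps21, 0.18 for Mrps27 and -0.012 for Mrps31. In the authors' table it was -0.076, -0.10, -0.049, 0.29, -0.0038, 0.19 and -0.011 for these. With normexp it was -0.49 for Mrpl43, -0.44 for Mrps10 and -0.36 for Mrps2, and with array weights 0.11 for Mrpl47. Mrpl10 was at 0.15 as the mean of its probes and at 0.72 at the probe without shared runs. With 1 array left out, Mrpl14 ranged from -0.017 to 0.059, Mrpl47 from -0.19 to 0.051 and Mrpl43 from -0.0040 to 0.43. Mrps10 was well above background on 0 and Mrpl43 on 1 of the 6 control arrays.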
